A study of Mus musculus with 2 samples.

Results

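Maturing rods were taken here as cells that held transcripts of phototransduction, retinol metabolism, the outer segment or its matrix beside the rod fate factors. They were selected on measured values: at least 1000 UMIs (unique molecular identifiers, each marking 1 captured transcript) outside mitochondrial genes, a UMI of at least 2 of the 5 genes Gnat1, Cnga1, Rp1, Impg1 and Rdh12, at least 1 UMI of Nrl or Nr2e3, and fewer than 3 of the 6 cone genes Opn1sw, Opn1mw, Arr3, Gnat2, Pde6h and Pde6c. Of 6330 cells with at least 1000 UMIs, among 7103 cells read, 1516 met the rule: 883 of 3541 control cells and 633 of 2789 Mettl3-CKO cells. The study asked what loss of Mettl3, the methyltransferase that marks mRNA with N6-methyladenosine (m6A), does to late retinal development. The Mettl3-CKO pups carried Six3-Cre and were floxed/floxed for Mettl3, so that the gene is lost in retinal progenitor cells, with efficient loss shown for the central retina. The control pups were littermates whose genotype is given only as Ctrl. Papain was used to dissociate retinas of 1 litter at postnatal day 7, and 2 retinas from different pups were pooled into each of 2 droplet 3′ libraries, 1 per group. No difference below therefore has a replicate check, no test was possible, and every 95% interval covers counting error only.

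A rod detects light through a cascade held in the membranes of its outer segment. Light absorbed by the visual pigment activates the G protein transducin, transducin activates a phosphodiesterase, the fall in cGMP closes the cyclic nucleotide-gated channel, and a receptor kinase and arrestin end the response. In mouse, rods are the last large photoreceptor population to be born, and in the first postnatal weeks they switch on these genes under the transcription factors Crx, Nrl and Nr2e3 while the outer segment grows from a modified cilium. Of the 5 genes in the rule, Gnat1 codes for the rod transducin alpha subunit, Cnga1 for a subunit of the rod channel, Rp1 for a microtubule protein of the outer segment axoneme, Impg1 for a proteoglycan of the matrix around the outer segment, and Rdh12 for a retinol dehydrogenase.

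The rule was met mainly through 3 of its 5 genes. Rp1 had a UMI in 99.4% of the members of either library, Cnga1 in 70.2% of control and 72.7% of Mettl3-CKO members, and Rdh12 in 71.0% and 68.2%. Impg1 was seen in 15.7% and 17.4%, and Gnat1 in 11.4% and 14.4%. Among members with exactly 2 of the 5 genes, the pair was Rp1 with Rdh12 in 48.8% of the 420 such control cells and 48.6% of the 294 in Mettl3-CKO, and Rp1 with Cnga1 in 43.8% and 43.9%. The label of cells with phototransduction transcripts thus held through Cnga1 more than through transducin, and through Rdh12 only where retinol metabolism is counted in. Of 8 further rod genes outside the rule, at least 3 were detected in 870 of 883 control and 623 of 633 Mettl3-CKO members. These genes included Sag, Pde6g, Pde6b, Gngt1, Pdc, Rcvrn and Nxnl1. The share for cells outside the rule is not given here, so this count does not set the members apart from them. Cells just outside the rule, with 1 of the 5 genes, also held Sag, Pdc and Gngt1 UMIs, at lower average levels than members.

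Free RNA in the droplets can give UMIs of rod genes in other cells, and their shares were measured in cells with at least 3 markers of another class, members of the rule included. Of the Müller-marked cells, Cnga1 had a UMI in 3.54% of 903 control and 5.80% of 948 Mettl3-CKO cells, Rdh12 in 4.43% and 6.86%, and Rp1 in 9.86% and 15.1%. At least 2 of the 5 genes were found in 35 and 64 of these cells (3.88% and 6.75%), of which 32 and 52 met the whole rule. They were deeper than the members, with medians of 8314 and 8342 UMIs against 4278 and 4828. Of the amacrine-marked cells, 8 of 48 in control and 9 of 50 in Mettl3-CKO held 2 of the 5 genes. In the 23 control and 21 Mettl3-CKO microglia-marked cells, with medians of 2563 and 5640 UMIs, none did. So few cells allow shares of up to 14.8% and 16.1% (exact binomial upper bound). The shares were higher in the amacrine-marked than in the Müller-marked cells, and depth also differed between the classes. Among Müller-marked cells they were higher in Mettl3-CKO than in control. Nrl and Nr2e3 were less selective than the 5 genes, with a UMI of Nrl in 23.9% and of Nr2e3 in 26.5% of the Müller-marked control cells. The part of free RNA and of droplets with 2 cells in the members was not tested.

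As a description of the members, with no test because the same cells were chosen on related genes, the 10 genes with the highest level over all other cells were led by Cnga1, Gnat1, Impg1 and Rdh12 from the rule and included Pax7, Synpo2, Pde6a and the predicted gene Gm19667. Levels are given in CPM, UMIs of a gene per 1000000 UMIs summed over the cells of a library. With both libraries pooled, Pde6a, the alpha subunit of the rod phosphodiesterase, stood at 42.3 CPM in members and 3.21 CPM in the other cells, and Pax7, a paired box factor, at 41.7 and 2.58 CPM. Rcvrn, the calcium sensor recoverin, was at 457 CPM in members and 19.7 CPM in the 2823 other cells with Nrl or Nr2e3 UMIs, which passed the same limits with 0 or 1 of the 5 genes. Neurod4, a factor of photoreceptor and bipolar precursors, ran the other way, with 295 CPM in members and 948 CPM in those cells.

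Members also differed among themselves with the number of the 5 genes they held. To compare cells of unequal depth, each cell was thinned to 1000 UMIs. On that scale, Rcvrn in control members stood at 274 UMIs per 1000000 with 2 of the 5 genes, 655 with 3 and 1194 with 4 or 5, and in Mettl3-CKO members at 241, 653 and 1060. Sag, which codes for rod arrestin, went from 4350 to 5702 and 6556 in control and from 3235 to 4573 and 5050 in Mettl3-CKO. Crx, the homeodomain factor of all photoreceptors, showed no such order, with 860, 1006 and 839 in control. Rcvrn in cells just outside the rule, with 1 of the 5 genes, stood at 78.0 among control and 46.4 among Mettl3-CKO cells. The average levels of Rcvrn and Sag thus rose with the number of the 5 genes, and 718 control and 517 Mettl3-CKO cells lay 1 gene short of the rule. Whether single cells form a graded series or a mixture was not tested.

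**Figure D1:**
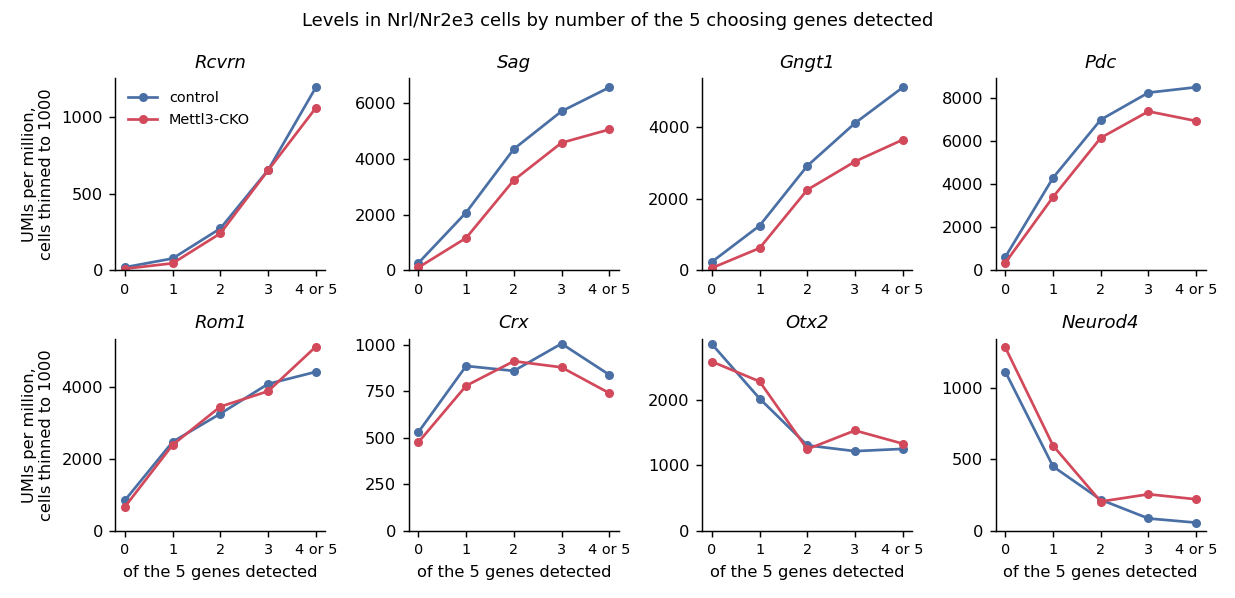
Level of 8 genes outside the rule (vertical axis, UMIs per 1000000 after thinning each cell to 1000 UMIs) in cells with Nrl or Nr2e3 UMIs and fewer than 3 cone genes, by how many of the 5 choosing genes were detected (horizontal axis), for the control library (blue) and the Mettl3-CKO library (red). Rcvrn, Sag, Gngt1 and Rom1 were higher in cells with more of the 5 genes in both libraries, and Sag and Gngt1 were lower in the Mettl3-CKO library at every number.

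Maturing rods made up 24.9% (23.5% to 26.4%, exact binomial interval) of the control cells and 22.7% (21.2% to 24.3%) of the Mettl3-CKO cells, a ratio of 0.910 (0.832 to 0.995). With the rule applied after thinning, the shares were 11.0% and 9.43%, a ratio of 0.854 (0.736 to 0.990). Their share of all cells with Nrl or Nr2e3 UMIs and fewer than 3 cone genes was alike in both libraries, 34.9% (33.0% to 36.8%) and 35.0% (32.8% to 37.3%). In these pools of retinas, a difference in share between the libraries cannot be told apart from a difference between dissections or captures. The direction of the share ratio also depended on depth. Among cells under 8000 UMIs, members made up 28.6% in control and 23.7% in Mettl3-CKO, a ratio of 0.826 (0.748 to 0.912), and among cells with at least 8000 UMIs they were 11.4% and 20.5%, a ratio of 1.79 (1.41 to 2.27).

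The deepest members stood apart, and more of the Mettl3-CKO members were of this kind. Members with at least 8000 UMIs were 87 of 883 in control (9.85%) and 172 of 633 in Mettl3-CKO (27.2%), whereas cells of that depth made up 21.5% and 30.2% of all cells with at least 1000 UMIs. In that depth class, 27 control and 49 Mettl3-CKO members carried at least 3 markers of another retinal class (31.0% and 28.5%), against 20 of 796 and 13 of 461 members under 8000 UMIs (2.51% and 2.82%). Most of these carried Müller glia markers, found in 32 control and 52 Mettl3-CKO members of any depth. Over all members, all 7 Müller markers were higher in the Mettl3-CKO library and their summed level was 392 CPM against 204 CPM in control, where Aqp4 was at 0. All 7 cycling progenitor markers were also higher, at 139 against 45.8 CPM. Among members under 8000 UMIs the Müller sums were 127 CPM in Mettl3-CKO and 149 CPM in control, and the progenitor sums 46.7 and 25.9 CPM. No member had 3 ganglion, horizontal, microglia or endothelial markers, which allows a share of up to 0.417% in control and 0.581% in Mettl3-CKO (exact binomial upper bound). The main ratios below are therefore also given within the depth classes.

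Xist, the RNA of the inactive X chromosome, and Y-linked genes gave a separate view of the same cells. An Xist UMI was present in 5 of 883 control members and 416 of 633 Mettl3-CKO members (65.7%), and a UMI of Ddx3y, Eif2s3y, Uty or Kdm5d in 579 (65.6%) and 209 (33.0%). The control members thus held Y-linked transcripts and next to no Xist, and the Mettl3-CKO members held cells of either kind. Both kinds of transcript were found in the same member in 88 Mettl3-CKO cells. They were 15 of 461 members under 8000 UMIs (3.25%, 1.83% to 5.31%) and 73 of 172 members with at least 8000 UMIs (42.4%, 35.0% to 50.2%). In the control members the numbers were 2 of 796 and 2 of 87. The sex of the pups and the genotype cannot be told apart in the comparison of all members, and values of Mettl3-CKO members with and without Xist are therefore given for the groups whose median moved most between them and for the m6A-tagged genes. This is not a clean split by sex, and it also follows depth. Xist was found in 80.2% of Mettl3-CKO members of at least 8000 UMIs and in 60.3% of those under 8000. The members with Xist include the 88 with both kinds of transcript. Of the 217 without Xist, 96 held no Y-linked UMI either.

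**Figure D2:**
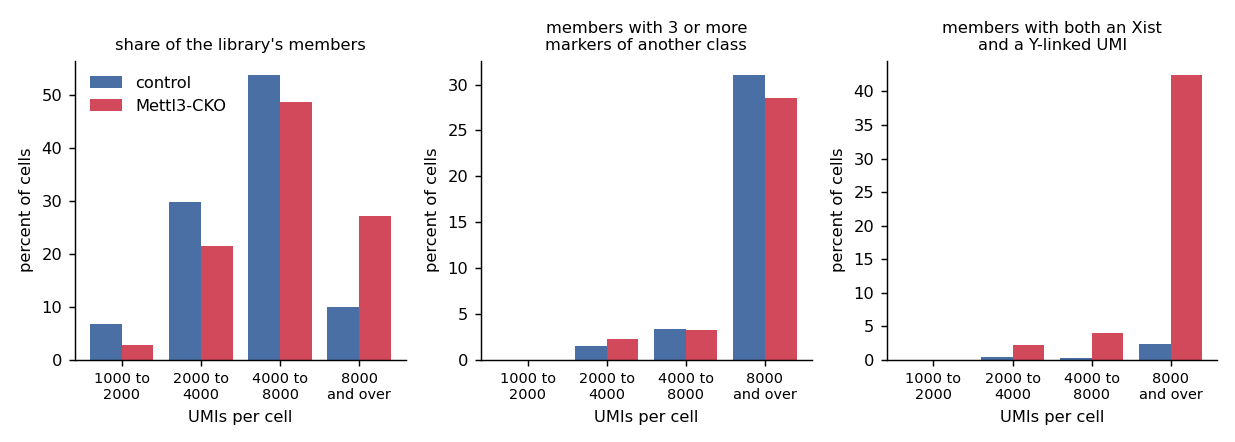
Maturing rods by depth class (horizontal axes, UMIs per cell outside mitochondrial genes) for the control (blue) and Mettl3-CKO (red) libraries: share of the library's members, share of each class with at least 3 markers of another retinal class, and share with both an Xist and a Y-linked UMI (vertical axes, percent of cells). The class of at least 8000 UMIs held 9.85% of control and 27.2% of Mettl3-CKO members, and 42.4% of the latter had both sex-linked transcripts.

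Levels were compared for 8374 genes with at least 100 UMIs over the members of both libraries, which summed to 4217483 UMIs in control and 4391236 in Mettl3-CKO. Over these genes the median log2 ratio of Mettl3-CKO over control was 0.01, 318 genes were at least 1.5-fold higher (3.80%) and 86 at least 1.5-fold lower (1.03%). Among members under 8000 UMIs alone, 96 genes were higher and 102 lower by that fold. For the Mettl3-CKO members without Xist against all control members, 133 genes were higher and 188 lower. The minimum of 100 UMIs was applied anew in each subset, so these counts rest on fewer UMIs and not on the same 8374 genes. They are therefore not comparable in size with the counts over all members. Within neither subset were higher genes more numerous than lower ones. Of the 8374 genes, 1763 met the conditions for named genes given with the processing, which include an interval without 1. The share of all genes with an interval wholly on 1 side of 1 is not given here, and intervals are narrower for genes with more UMIs. Interval counts for the gene lists below thus have no share over all genes beside them. Mettl3 itself was examined as a check of the labels. It was at 44.6 CPM (188 UMIs) in control and 32.8 CPM (144 UMIs) in Mettl3-CKO members, a ratio of 0.736 (0.588 to 0.919). Reads counted at the 3′ end need not report a deletion elsewhere in the gene.

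The rod phototransduction genes were lower in the Mettl3-CKO library over all members, by an amount that depended on how depth was treated. Of 24 genes in the list, 3 chose the cells and 17 others had at least 100 UMIs. Of these 17, 16 had a ratio below 1, beside 47.3% of all genes compared, and 10 had an interval wholly below 1. None of the 17 was 1.5-fold lower and 1 was 1.5-fold higher, beside 1.03% and 3.80% of all genes compared. Their median log2 ratio was -0.22, against 0.01 for all genes, and it was -0.10 among members under 8000 UMIs and 0.0001 among those with at least 8000 UMIs. With the rule applied after thinning to 1000 UMIs it was -0.30. It was -0.29 for Mettl3-CKO members with Xist and -0.10 for those without, each against all control members. The 4 genes not compared, Guca1a, Guca1b, Gucy2f and Rdh8, had between 2 and 29 UMIs in each library. Because the genes of the rule belong to the same programme, the level of the whole list in these cells was partly set by the choice of the cells.

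**Figure D3:**
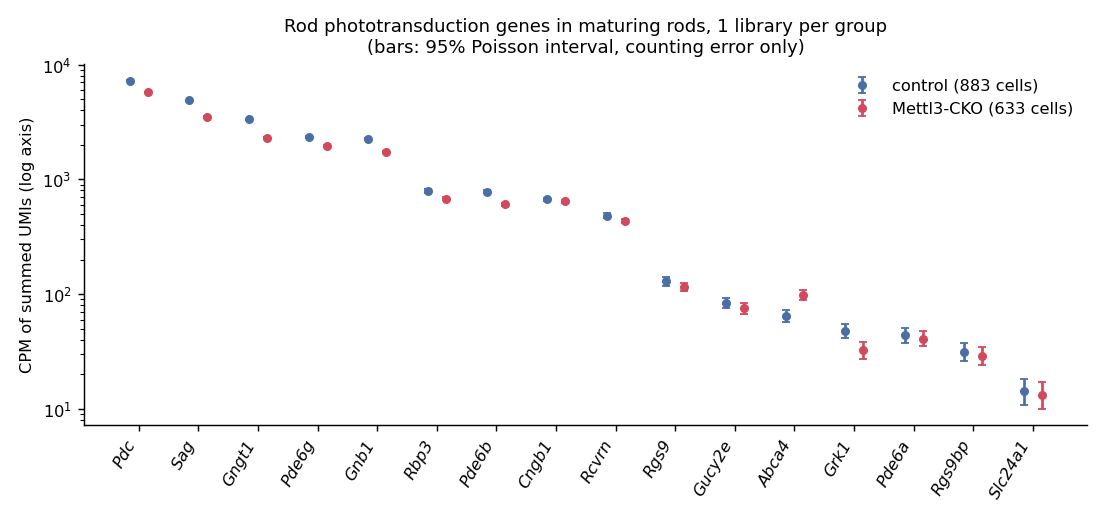
Levels of 16 of the 17 compared rod phototransduction genes in maturing rods (vertical axis, CPM of summed UMIs on a log axis), in the control (blue, 883 cells) and Mettl3-CKO (red, 633 cells) library, with 95% Poisson intervals that cover counting error only. All shown but Abca4 were lower in the Mettl3-CKO library, most clearly Sag and Gngt1 among the abundant genes.

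Of the G protein cascade, Gngt1, the rod transducin gamma subunit (chromosome 6, 3993792 to 3997436), was at 3329 CPM in control and 2311 CPM in Mettl3-CKO, a ratio of 0.694 (0.677 to 0.712). In narrower depth classes its log2 ratio was -0.54 at 1000 to 2000 UMIs, -0.10 at 2000 to 4000 and -0.30 at 4000 to 8000. In members under 8000 UMIs and in those of at least 8000, it was -0.27 and -0.41. Gnb1, the transducin beta subunit shared with many other G proteins, was at 2252 and 1737 CPM, and at -0.15 and -0.21 within the classes. Pdc, the gene of phosducin, which binds the beta and gamma subunits, was the most abundant of the list at 7225 and 5710 CPM, and had -0.11 and -0.15. Of the phosphodiesterase subunits, Pde6b was at 783 and 604 CPM and Pde6g at 2357 and 1963 CPM. Within the depth classes Pde6b kept log2 ratios of -0.30 and -0.10, and Pde6g was at -0.04 and -0.01.

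Of the genes that end the light response, Sag (chromosome 1, 87803680 to 87845158) was lower as well, with 4874 CPM (20558 UMIs) in control and 3502 CPM (15376 UMIs) in Mettl3-CKO members, a ratio of 0.718 (0.703 to 0.734). Its log2 ratio was -0.25 in members under 8000 UMIs and -0.36 in deeper ones. In narrower classes it was -0.20 at 1000 to 2000 UMIs, -0.08 at 2000 to 4000 and -0.29 at 4000 to 8000. Grk1, the receptor kinase of rods, had few UMIs, 200 and 142, and a ratio of 0.682 (0.546 to 0.850), with log2 ratios of opposite sign in the depth classes, -0.63 and 0.15. Rcvrn at 483 and 432 CPM, Rgs9 at 129 and 116 CPM and the channel subunit Cngb1 at 668 and 642 CPM differed less, and their log2 ratios among members under 8000 UMIs were 0.07, 0.10 and 0.13. Abca4, the transporter that clears retinoids from the disc membrane, was the single gene above 1 among the 17 compared, at 65.0 CPM in control and 98.2 CPM in Mettl3-CKO, a ratio of 1.51 (1.30 to 1.76), with log2 ratios of 0.45 and 0.19 within the classes. Rbp3, the retinoid carrier of the matrix between photoreceptors and pigment epithelium, was at 793 and 680 CPM.

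**Figure D4:**
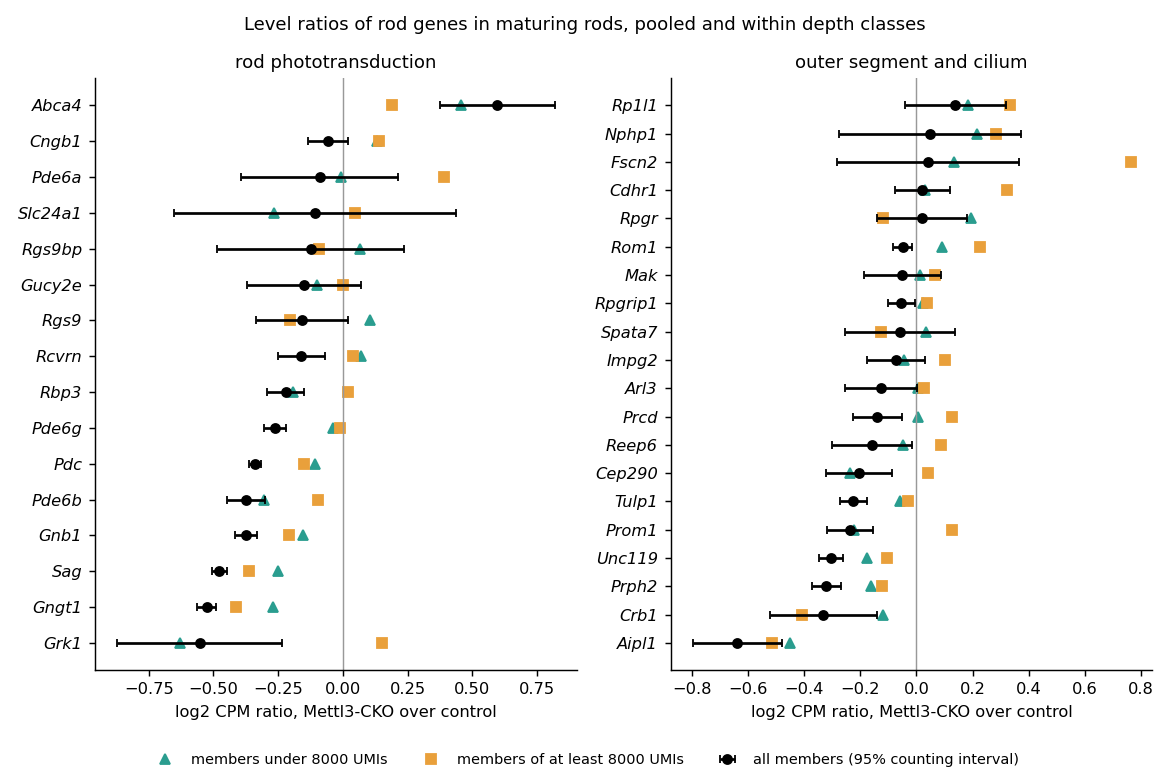
Log2 CPM ratio of Mettl3-CKO over control (horizontal axes) for the reported rod phototransduction genes and outer segment and cilium genes outside the rule, over all members with 95% counting intervals (black), under 8000 UMIs (green triangles) and at or above 8000 UMIs (orange squares). Sag, Gngt1 and Aipl1 lay below 0 in all 3 sets, while Rom1 and Prph2 moved toward or past 0 within the depth classes.

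The outer segment and cilium genes differed little. All 21 genes of that list outside the rule were compared, with a median log2 ratio of -0.12 over all members, 0.01 under 8000 UMIs and 0.04 above, and it was -0.20 for Mettl3-CKO members with Xist and -0.04 for those without. Of the 21, 16 were below 0 and 12 had an interval wholly below 1, and 1 was 1.5-fold lower and none 1.5-fold higher, beside 47.3% of all compared genes below 0, 1.03% lower and 3.80% higher. That gene was Aipl1 (chromosome 11, 72027963 to 72037509), the chaperone needed to assemble the phosphodiesterase, at 193 CPM (812 UMIs) in control and 124 CPM (543 UMIs) in Mettl3-CKO members, a ratio of 0.642 (0.575 to 0.717), with log2 ratios of -0.45 and -0.52 within the depth classes. The disc rim proteins diverged: Prph2 was at 1540 and 1233 CPM and Rom1 at 3475 and 3359 CPM, and under 8000 UMIs they had log2 ratios of -0.16 and 0.09. Of the connecting cilium genes, Rpgrip1 was at 1740 and 1677 CPM, Cep290 at 294 and 255 CPM and Rpgr at 150 and 152 CPM. Tulp1, a protein of transport to the outer segment, was at 1772 and 1516 CPM, with -0.06 under 8000 UMIs.

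The genes of the rule are given as a description only, since they chose the cells. In control and Mettl3-CKO members respectively, Rp1 was at 1808 and 2052 CPM, Cnga1 at 484 and 412 CPM, Rdh12 at 269 and 187 CPM, Impg1 at 39.4 and 30.5 CPM and Gnat1 at 34.4 and 28.2 CPM. Nr2e3 was at 5453 and 4745 CPM and Nrl at 2102 and 1805 CPM. Among the cone genes that bounded the cells, Opn1mw had no UMI in any member and Opn1sw, the short wavelength opsin, was at 74.9 and 51.0 CPM.

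For a view of the sequence next to the transcribed start, the 250 bases before the RefSeq start (build GRCm38.p6, transcribed strand, 5′ to 3′) are shown for the 3 genes of both rod lists with the lowest ratio and for the 1 with the highest, among windows that reach at most 30 bases into the gene's annotated model. Capitals mark TAATCC, the core bound by Crx and Otx2, and TGCTGA, a part of the site bound by Nrl, on either strand. No place in the 4 windows held overlapping matches.
Aipl1 (chr11:72037510-72037759, minus strand): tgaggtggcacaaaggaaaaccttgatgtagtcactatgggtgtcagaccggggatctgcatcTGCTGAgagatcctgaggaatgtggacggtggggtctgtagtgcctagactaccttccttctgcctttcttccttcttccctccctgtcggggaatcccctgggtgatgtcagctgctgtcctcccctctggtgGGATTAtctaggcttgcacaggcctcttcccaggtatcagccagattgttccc
Grk1 (chr8:13404831-13405080, plus strand): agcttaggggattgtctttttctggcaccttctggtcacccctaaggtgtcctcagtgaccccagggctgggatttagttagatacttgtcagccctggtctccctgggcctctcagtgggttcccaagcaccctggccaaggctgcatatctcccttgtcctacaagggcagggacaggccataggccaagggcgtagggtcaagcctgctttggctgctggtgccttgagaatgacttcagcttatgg
Sag (chr1:87803430-87803679, plus strand): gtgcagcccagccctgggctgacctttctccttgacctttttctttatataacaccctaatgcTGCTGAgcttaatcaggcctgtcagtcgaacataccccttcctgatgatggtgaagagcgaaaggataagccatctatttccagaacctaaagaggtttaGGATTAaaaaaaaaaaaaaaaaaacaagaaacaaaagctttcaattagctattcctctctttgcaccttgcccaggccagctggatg
Abca4 (chr3:122044210-122044459, plus strand): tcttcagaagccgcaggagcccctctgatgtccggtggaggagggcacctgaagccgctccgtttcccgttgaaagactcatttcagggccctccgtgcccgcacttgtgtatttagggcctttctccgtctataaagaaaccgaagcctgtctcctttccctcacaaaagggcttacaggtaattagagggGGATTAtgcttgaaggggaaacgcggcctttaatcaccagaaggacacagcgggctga
Over all 32851 windows of this length in the table, 6.25% held TAATCC and 16.1% TGCTGA on either strand. Of the phototransduction genes with a window, 9 of 17 held TAATCC and 5 TGCTGA, and of the outer segment and cilium genes 4 of 18 and 3 of 18. Abca4 and Sag, with ratios on opposite sides of 1, both held TAATCC, and these matches are letters in a window and not shown to be sites.

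The transcription factors of photoreceptors were close to level. The 12 compared genes outside the rule had a median log2 ratio of 0.01 (0.07 with and -0.17 without Xist in the Mettl3-CKO members), none was past 1.5-fold, and Crx was at 914 and 866 CPM, Neurod1 at 3486 and 3586 CPM and Casz1 at 722 and 714 CPM. Rod synapse genes had a median of -0.10 over 21 genes with none past 1.5-fold, among them Snap25 at 983 and 845 CPM and the ribbon protein gene Ctbp2 at 276 and 330 CPM. The 5 compared cone genes outside the rule had a median of 0.0005, at 0.11 with and -0.17 without Xist. Precursor genes had a median of 0.31 over 8 genes, of which 2 were 1.5-fold higher (3.80% of all genes), among them Neurod4 at 214 and 373 CPM. That median was 0.41 with and -0.04 without Xist in the Mettl3-CKO members. Among members under 8000 UMIs it was -0.03, and Neurod4 was at 98.6 and 153 CPM there. Among members of at least 8000 UMIs the precursor median was 0.08. The Müller marker sums there were 394 CPM in control and 615 CPM in Mettl3-CKO, and the progenitor sums 115 and 216 CPM. The part of RNA from those classes in the precursor median was not tested.

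The m6A-tagged genes were higher in the Mettl3-CKO members. These 8 genes were picked by the study from these libraries, so their direction here is not independent evidence. All 6 with at least 100 UMIs had an interval above 1, 2 were 1.5-fold higher and none lower, beside 3.80% and 1.03% of all genes, and the median log2 ratio was 0.55, beside 0.01 for all genes. Traf4, an adaptor of receptor signalling, was at 14.5 CPM in control and 27.6 CPM in Mettl3-CKO, a ratio of 1.91 (1.39 to 2.64), and Ckap4, a membrane protein of the endoplasmic reticulum, at 110 CPM (466 UMIs) and 166 CPM (730 UMIs). Apex1, a DNA repair endonuclease, was at 58.1 and 87.0 CPM, Nxt1, an mRNA export cofactor, at 35.1 and 50.6 CPM, the zinc finger gene Zfp292 at 202 and 264 CPM and Bcl7a, a chromatin remodelling subunit, at 167 and 207 CPM. Rap2b with 31 and 63 UMIs and Sulf2 with 23 and 45 UMIs were not compared. This median was 0.50 in members under 8000 UMIs, and 0.50 and 0.53 in Mettl3-CKO members with and without Xist. It varied more in narrower depth classes, at 1.34 for 1000 to 2000 UMIs (60 control and 17 Mettl3-CKO cells). For 2000 to 4000 UMIs it was 0.03 (262 and 136 cells), and for 4000 to 8000 UMIs 0.55. In members of at least 8000 UMIs it was 0.24, and Bcl7a was at -0.10 there.

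The 16 genes of the m6A machinery had a median log2 ratio of 0.24, and none was past 1.5-fold in either direction. Besides Mettl3, 13 were above 0, of which 7 had an interval above 1. They included Mettl16, another m6A methyltransferase, at 45.1 and 65.8 CPM, the writer subunits Rbm15 at 37.0 and 51.0 CPM and Wtap at 93.9 and 116 CPM, and the reader Ythdf2 at 79.2 and 107 CPM. The demethylases Alkbh5, at 175 and 166 CPM, and Fto, at 99.6 and 104 CPM, were close to level.

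Cdkn1a, the cell cycle inhibitor p21 and a target of p53, was among the 12 genes with the highest ratio. It was at 13.5 CPM (57 UMIs) in control and 42.1 CPM (185 UMIs) in Mettl3-CKO members, a ratio of 3.12 (2.30 to 4.27), with log2 ratios of 1.75 and 0.98 in the depth classes, and a UMI was found in 4.64% and 13.9% of members. The other 9 compared p53 targets had no interval apart from 1, with Mdm2 at 97.4 and 108 CPM and Bax at 207 and 222 CPM. The list median was 0.22, with 1 gene 1.5-fold higher and none lower, beside 3.80% and 1.03% of all genes. The 6 targets with fewer than 100 UMIs were not compared. Among them, Phlda3 had 10 and 43 UMIs and Sesn2 10 and 26, both with an interval above 1, while Perp had 33 and 31 and Gdf15 14 and 14.

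The highest ratios were those of Xist and of Tsix, which overlaps Xist on the opposite strand, so that its UMIs are uncertain where counting is not known to be stranded. The remaining highest genes were Sox2, Ndufa4l2, Ccnd1, Pcp2, Rgr, Gas1, Spock2, Espn and Mdk, with ratios from 2.62 to 3.51. Several of them are known from other retinal cells: Sox2 is a factor of progenitors and Müller glia, Ccnd1 the cyclin of cycling progenitors, Rgr an opsin of Müller glia and pigment epithelium and Pcp2 a bipolar cell gene. In members under 8000 UMIs, Ndufa4l2 was at 32.3 and 31.3 CPM and Gas1 at 14.95 and 15.9 CPM, so that the difference was not seen there, and Sox2 was at 9.46 and 14.9 CPM with an interval that included 1. Ccnd1 was still higher in those members, at 27.5 and 63.2 CPM, as were Rgr at 8.85 and 27.8 CPM, Spock2 at 8.24 and 28.3 CPM, Pcp2 at 14.0 and 29.8 CPM and Mdk at 14.3 and 31.3 CPM. All of these were low, at most 17.5% of members of either library holding a UMI.

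Of the 12 genes with the lowest ratio, 4 were the Y-linked Eif2s3y, Ddx3y, Kdm5d and Uty, with ratios from 0.360 to 0.412. The others included Cdk5rap1, Pter, Otx2os1, Hist1h1c, Pax7, Gstp1 and Tmsb15b1, with ratios from 0.362 to 0.569. Hist1h1c, a linker histone, was at 349 CPM (1470 UMIs) in control and 185 CPM (812 UMIs) in Mettl3-CKO, a ratio of 0.531 (0.486 to 0.578), and at 386 and 195 CPM in members under 8000 UMIs. Its log2 ratio was -0.30 in deeper members. Cdk5rap1 (chromosome 2, 154335380 to 154373010), a tRNA modifying enzyme, was at 34.6 and 12.5 CPM, a ratio of 0.362 (0.260 to 0.497). Pax7, which was also among the genes most elevated in members over other cells, was at 54.5 and 29.4 CPM. It was at -1.16 in Mettl3-CKO members with Xist and -0.32 in those without. Otx2os1 lies antisense to Otx2, and no source here says that counting was stranded, so UMIs of the partner could be among those given. Tmsb15b1 overlaps Tmsb15b2 and Tmsb15l on the same strand, and how its UMIs were divided among them is uncertain.

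**Figure D5:**
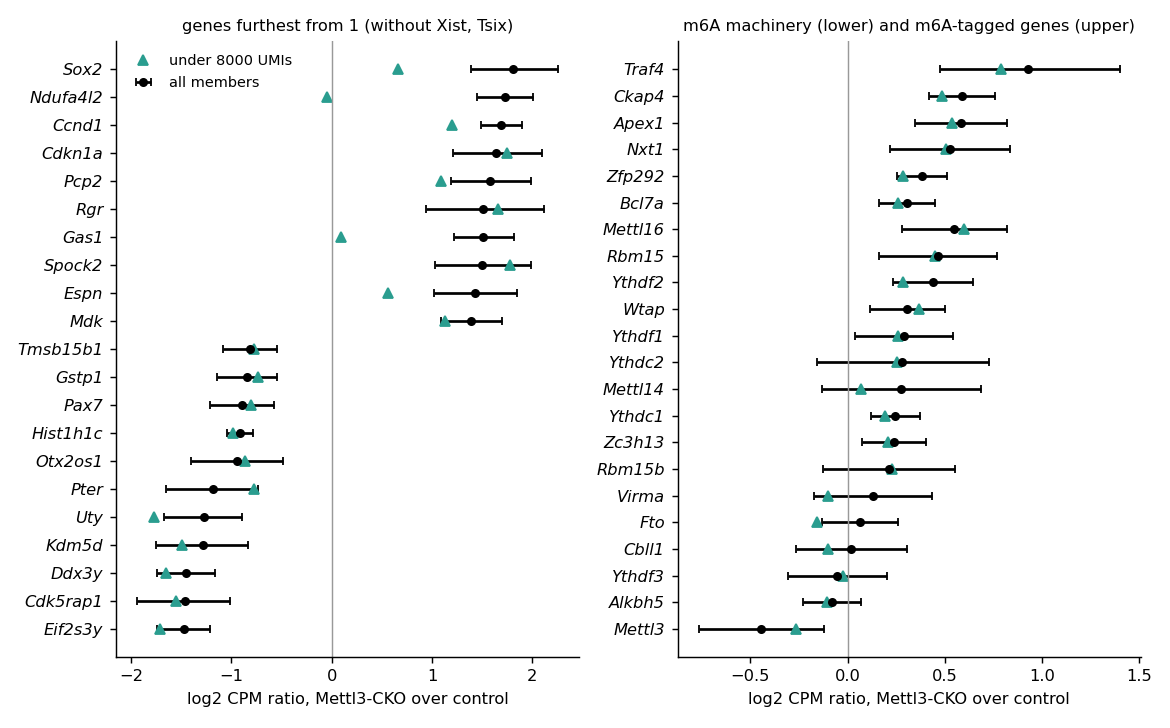
Log2 CPM ratio of Mettl3-CKO over control in maturing rods (horizontal axes) for 21 of the 22 genes with the highest and lowest ratios other than Xist and Tsix (left) and for the m6A machinery and m6A-tagged genes (right), over all members with 95% counting intervals (black) and under 8000 UMIs (green triangles). Ndufa4l2 and Gas1 lay near 0 under 8000 UMIs, whereas Cdkn1a, Hist1h1c and all 6 m6A-tagged genes kept their side.

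Of the general programmes, nuclear genes of oxidative phosphorylation had a median log2 ratio of -0.18 over 75 genes. Of these, 70 were below 0, beside 47.3% of all genes, and 61 had an interval below 1. Only 1, Ndufa4l2, was 1.5-fold higher (3.80% of all genes). The median was -0.24 for Mettl3-CKO members with Xist and -0.0025 for those without, so the difference was not seen in the latter, and it was -0.07 in members under 8000 UMIs. Ribosomal protein genes had a median of 0.08 over 81 genes, glycolysis genes -0.04 over 17, genes of the nuclear lamina and chromatin 0.08 over 11 and photoreceptor stress genes 0.08 over 5, all with none past 1.5-fold. Immediate early and heat shock genes, which respond to dissociation, had a median of 0.10 over 12, with 3 genes 1.5-fold higher, beside 3.80% of all genes: Fosb at 56.9 and 116 CPM, Ier2 at 89.9 and 171 CPM and Egr1 at 91.5 and 156 CPM. Egr1 was at a log2 ratio of -0.53 under 8000 UMIs, and the list median was -0.10 there and 0.26 above. The mitochondrial share was lower in the Mettl3-CKO members, with a median per cell of 4.40% against 5.54% in control.

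The other cells with Nrl or Nr2e3 UMIs, 1648 control and 1175 Mettl3-CKO cells with 0 or 1 of the 5 genes, showed lower rod gene levels in the Mettl3-CKO library too. Sag was at 619 and 378 CPM there and Gngt1 at 362 and 187 CPM, and the phototransduction median was -0.32, against -0.22 in the members. Whether these differ from the members was not tested. The m6A-tagged median was 0.59 in those cells and 0.55 in the members. Cdkn1a was at 15.7 CPM in control and 123 CPM in Mettl3-CKO in those cells, against 13.5 and 42.1 CPM in the members.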

How the data were processed

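The authors sequenced 10x Genomics 3′ v3.1 libraries, aligned reads to mm10 (GRCm38) and counted UMIs with Cell Ranger 3.1.0 after trimming with fastp, and the submitters' processing notes also name Seurat 3.1. The deposited values are raw UMI counts per gene and cell, not normalized, and the gene and barcode columns are text. Whether the strand was used in counting is not given in the sources used here. The count matrices as read held 3994 complete cells of 5995 barcodes (control) and 3109 of 6992 (Mettl3-CKO), and the other cells were not analysed here. The 3994 and 3109 cells held 22181683 and 20830028 UMIs, of which 5.53% and 4.19% were mitochondrial and were left out of totals. The libraries shared 5 barcodes, 1 of them among members. By the study's stated cell filter (over 200 genes, mitochondrial UMIs below 20%), 41 control and 6 Mettl3-CKO members would have been left out. Scrublet (scanpy), run with an expected doublet rate of 6%, marked 9 cells, 0.127%, so doublets were in effect not removed.

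UMIs were summed over members per library and scaled to CPM. Intervals are at 95%: exact Poisson for levels, exact conditional binomial for ratios, Clopper-Pearson for shares and Katz for share ratios. They cover counting error only. With 1 library per group no p-value was computed, and a fold of 1.5 stands in place of a test. Named genes were the 12 highest and 12 lowest ratios over genes that had 100 or more UMIs, were detected in 10% or more of the members of 1 library, had an interval without 1 and kept their direction when scaled by median-of-ratios, without predicted and mitochondrial genes and genes of the rule, besides the lists and the 10 leading genes. Of the 24, 8 overlap another gene. A cell carried another class with at least 3 of its markers. Alternatives changed the rule, the cell filters, the depth, the scaling, the gene minimum and the fold. The level ratio was tested on simulated counts. Positions are from GENCODE vM21 (GRCm38) and sequences from RefSeq. Some genes of the lists are counted in the list values but not reported singly here. Members and lists were chosen with earlier results of these data known. Python 3.11.15, numpy 2.4.6, scipy 1.17.1 and pandas 2.3.3 were used.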

Additional observations from a re-analysis of the deposited data

Results flagged for a closer look

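Of the genes described, 5 had counting intervals on opposite sides of 1 in maturing rods and in the other cells with Nrl or Nr2e3 UMIs. The differences between these cell sets were not tested. Espn, an actin bundling protein, had a log2 ratio of Mettl3-CKO over control of 1.43 in maturing rods and -0.17 in the other cells, but in maturing rods under 8000 UMIs it was 0.56 (-0.11 to 1.23), an interval that does not lie on 1 side of 0. Otx2, the homeodomain factor of photoreceptor and bipolar cells, had 0.22 and -0.06, although it was at -0.10 in maturing rods under 8000 UMIs. Neurod1, a proneural factor, had 0.041 and -0.11, Gngt2, the cone transducin gamma subunit, 0.20 and -0.06, and Pfkl, a glycolytic enzyme, 0.22 and -0.40.

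Xist, and Xist together with Y-linked UMIs in 1 cell, lay outside the comparison of rod genes and were found in more cells than in the control library. An Xist UMI was present in 65.7% of Mettl3-CKO maturing rods and in 0.566% of control ones. Among Mettl3-CKO maturing rods of at least 8000 UMIs, 42.4% held both an Xist and a Y-linked UMI, against 2.30% of the control cells of that depth.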

How the results depend on the processing

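No paired analysis was possible because each group had 1 library, and for the same reason no replicate could be left out. The splits at 8000 UMIs and the removal of cells with both Xist and Y-linked UMIs were chosen after seeing the data. The count of genes at least 1.5-fold higher, 318, was 190 without members marked for another class, 163 with the rule after thinning, 133 for Mettl3-CKO cells without Xist, 96 under 8000 UMIs, 198 at or above, 88 under 8000 UMIs without other classes and 149 without cells holding both sex-linked transcripts. It was 880 and 88 for genes with at least 30 and 300 UMIs and 83 at a fold of 2. The count of lower genes, 86, was 188 without Xist, 224 and 15 at the 2 gene minimums and 9 at a fold of 2. The share ratio of 0.910 was 1.01 for Mettl3-CKO cells with Xist, 0.766 without, 0.826 under 8000 UMIs, 1.79 at or above, 0.824 under 8000 UMIs without other classes and 0.787 without cells holding both transcripts. The rod phototransduction median of -0.22 was -0.33 with at least 3 of the 5 genes, -0.30 after thinning, -0.10 without Xist, -0.10 under 8000 UMIs, 0.0001 at or above, -0.091 under 8000 UMIs without other classes, -0.11 without cells holding both transcripts and -0.14 as a mean of per-cell CPM. The outer segment and cilium median of -0.12 was 0.0057 under 8000 UMIs and 0.042 at or above. The m6A-tagged median of 0.55 was 0.24 at or above 8000 UMIs and 0.03 in members of 2000 to 4000 UMIs. Direction turned, as log2 ratios, for Ccnd1 (-0.24) and Ndufa4l2 (-0.68) with the rule after thinning, for Egr1 (-0.53) and Ndufa4l2 (-0.046) under 8000 UMIs, for Egr1 (-0.54) under 8000 UMIs without other classes and for Neurod4 (-0.14) at or above 8000 UMIs. The cause was not tested. Of the 24 genes with the highest and lowest ratios, 22 kept their sign under every alternative that gave a finite ratio, and 9 stayed past 1.5-fold. Most genes had 15 such alternatives, but Xist had 14 and Tsix 12. Genes with few UMIs had wide intervals, and a difference inside its interval was not detectable at this depth.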
